A study of Mus musculus with 6 samples.

Results

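Motile cilium and flagellum genes were gathered by their titles from the table of 4-fold differences between primary mouse Sertoli cells and the MSC-1 Sertoli cell line that the authors deposited. A gene was taken when its title named dynein, tektin, a cilium, a flagellum, an axoneme, a radial spoke, intraflagellar transport, primary ciliary dyskinesia, rootletin, outer dense fiber, Bardet-Biedl syndrome, tubulin or a coiled-coil domain. Titles with testis or sperm, symbols ending in Rik and Tuba3a were left out. Of 79 probe sets whose titles matched, 7 were left out, and the other 72 belonged to 62 genes among the 2365 genes of the table (2.62%). By title these were 9 genes of the axonemal dynein arms, 4 tektins, 4 radial spoke genes, 4 transport genes, 2 cytoplasmic dynein genes, 7 genes of tubulins and their modifying enzymes, and 32 genes titled only as containing a coiled-coil domain.

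The motile cilium and the sperm flagellum share a core, the axoneme, built of doublet microtubules around a central pair. Outer and inner dynein arms slide neighbouring doublets past each other, radial spokes and the nexin-dynein regulatory complex control that sliding, and tektins lie along the doublets. The parts are carried in by intraflagellar transport, which non-motile primary cilia use as well, while most of the motor parts belong to motile cilia and to sperm tails. In the seminiferous tubule the germ cells build flagella, and Sertoli cells, the somatic cells that nurse them, are not known as a cell type with motile cilia.

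Affymetrix arrays, 6 in all, measured RNA of primary Sertoli cells (3 samples) and of MSC-1 cells (3 samples), each left to aggregate, with 10 ug of RNA per labelling and no treatment beyond culture. The primary cells came from C57BL/6 x 129 mice, aged 10 to 20 days by the growth protocol and 19 to 20 days by the series design, a difference that was not settled. MSC-1 is 1 line, from a testicular tumour of a mouse carrying the SV40 large T antigen, and both groups had aggregated for 48 h in Ham's F10 medium with 10% serum. The labels do not state if a group's samples had separate cultures or animals as their source, so the spread between arrays may be technical. The study set out to find genes behind the survival and protective effect of Sertoli cells after transplantation.

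Not every title stood for a cilium part. The genes were set against fixed lists of axoneme, transport, basal body, assembly, tubulin and cytoplasmic dynein genes: 36 of the 62 were in one, and 26 were in none. Of those 26, 23 had only a coiled-coil title, among them Terb1, which ties meiotic telomeres to the nuclear envelope, Primpol, a primase and polymerase of DNA damage tolerance, and Gcc2, a protein of the Golgi. The other 3 were Tppp, Tppp3 and the probe set that the spoke genes Rsph3a and Rsph3b share, which was not matched to a single symbol. The coiled-coil titles in no list were taken by the wording of the title alone. Some of them, such as Cfap65, are sperm tail genes all the same, so absence from the lists does not settle what a gene is.

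Values are signals in the arrays' own units, scaled by the authors so that the trimmed mean was equal on the 6 arrays, and a probe set's level is not compared with that of another. The medians over all 45037 probe sets ran from 23.02 to 29.8, and a signal below its array's median is called low here. Primary array 1 stood a little apart, with a correlation across probe sets of 0.965 and 0.968 with primary arrays 2 and 3, against 0.987 between those. Without it the median log2 difference of the 62 genes between the groups was 5.49, beside 5.27 with all arrays. The arrays gave the direction of the authors' folds: in 3198 of 3198 probe sets of the deposited table the sign was that of primary over MSC-1. Every gene was in the table because of this contrast, so the differences between the groups are a description, without a test on single genes.

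Of the 62 genes, 57 (91.9%) had more signal in primary cells and 5 more in MSC-1 cells, where 62.5% of all 2365 genes of the authors' deposited table were higher in primary cells. The median authors' fold of the 57 was 14.1, beside 9.77 for all primary-side genes of the authors' deposited table. A fold of 16 or more was held by 28 of the 57, where 34.6% of all 1477 primary-side genes reached it in the authors' deposited table. The 3 primary values lay apart from the 3 MSC-1 values in 62 of 62 genes (51.2% of all probe sets, in either direction), and limma across all probe sets called 62 of 62 (39.9% of all probe sets, at an adjusted p under 0.05, and 3197 of the 3198 listed, 100% as rounded). Since the table was chosen by this contrast, nothing is read from these counts. In 40 of the 57 genes all 3 MSC-1 values were low, and in the other 17 at least 1 MSC-1 value was above its array's median. Since these are bulk samples, fewer cells of a type and less RNA per cell cannot be told apart.

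**Figure D1:**
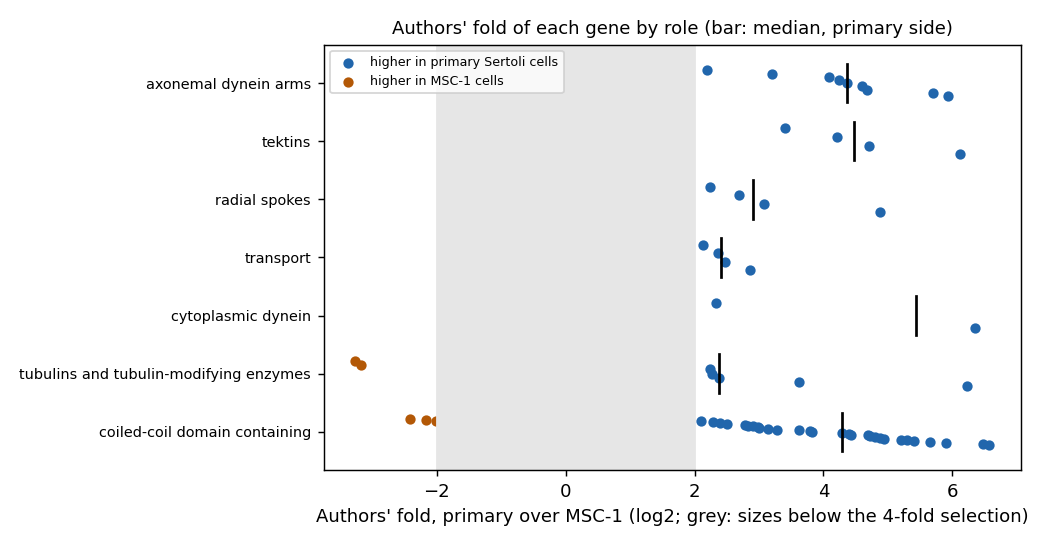
Each point is 1 gene, placed by the log2 of the authors' deposited fold (primary over MSC-1) on the horizontal axis and by role on the vertical axis; blue points are higher in primary cells, orange in MSC-1 cells, and black bars are medians of the blue points. The medians on a linear scale are 20.7 for the arms, 22.25 for the tektins, 19.6 for the coiled-coil genes, 7.47 for the spokes, 5.34 for transport and 5.22 for the tubulins, and the 5 orange points are tubulin or coiled-coil titles.

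Since most of the genes were higher in the same group, their promoters were read for the X-box, the site bound by RFX transcription factors, which is known from promoters of many ciliary genes. The letters searched were GTNNCC, any 3 bases and GNAAC in a row, on both strands, in windows of 300 bases from 250 before to 50 after the start of transcription (RefSeq, GRCm38.p6). Of the 62 genes, 53 had a window, 49 of them higher in primary cells. The X-box letters stood in 6 of the 49 (12.2%), in 6.29% of 1034 other primary-side genes of the table and in 2.55% of 17491 protein-coding genes. The 6 were Tekt4, a tektin, Bbs7, a subunit of the BBSome, Ttll9, a tubulin ligase, Ccdc151, an outer arm docking gene, Cfap45, a protein inside the doublet, and Deup1, which builds centrioles in multiciliated cells. Their stretches are shown 5′ to 3′ on the gene's strand, since they are the promoter letters that the genes share with the RFX site; capitals mark the X-box, and positions are counted from 1 at the first transcribed base.
Bbs7, chr3:36613447-36613560, minus strand, X-box at position -121: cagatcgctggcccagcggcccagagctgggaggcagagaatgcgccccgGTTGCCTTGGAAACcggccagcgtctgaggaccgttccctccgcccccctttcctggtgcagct
Ccdc151, chr9:22002635-22002718, minus strand, X-box at position -34: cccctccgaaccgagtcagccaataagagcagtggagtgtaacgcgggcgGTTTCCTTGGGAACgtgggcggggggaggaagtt
Cfap45, chr1:172521061-172521129, plus strand, X-box at position -19: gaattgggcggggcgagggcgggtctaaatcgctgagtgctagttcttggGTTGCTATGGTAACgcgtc
Deup1, chr9:15627870-15627983, minus strand, X-box at position -87: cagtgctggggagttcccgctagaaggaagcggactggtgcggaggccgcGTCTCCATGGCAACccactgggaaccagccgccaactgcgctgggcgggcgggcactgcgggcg
Tekt4, chr17:25471380-25471493, plus strand, X-box at position -160: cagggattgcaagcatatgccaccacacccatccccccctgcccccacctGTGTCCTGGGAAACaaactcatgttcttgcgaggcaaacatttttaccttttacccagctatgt
Tekt4, chr17:25471540-25471603, plus strand, X-box at position 1: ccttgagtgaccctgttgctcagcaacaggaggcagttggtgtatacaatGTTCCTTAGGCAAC
Ttll9, chr2:152962424-152962487, plus strand, X-box at position -11: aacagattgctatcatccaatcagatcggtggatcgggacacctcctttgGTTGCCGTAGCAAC
In Cfap45 and in the second Tekt4 stretch the match runs on the opposite strand. These are matches of letters and not shown sites of binding.

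The shorter X-box core GTTGCC, which the X-box letters can contain, was more widespread. It stood in 21 of the 49 genes (42.9%), in 20.1% of the other primary-side genes and in 14.4% of protein-coding genes. Its holders included Dnah7a, Dnah7b, Dnaic2, Tekt1, Tekt2, Ift140, Ift172, Dynlrb2 and Ttll8, and 4 of the 6 genes with an X-box. The forkhead core GTAAACA, the kind of letters that FOXJ1 binds, stood in 4 of the 49 (8.16%), in Tekt3, Ccdc30, Ccdc89 and Ccdc136, against 3.68% of the other primary-side genes and 3.45% of protein-coding genes. Without the coiled-coil titles it stood in 1 of 25 genes (4%), Tekt3. None of the 3 motifs was in the windows of the 4 MSC-1-side genes that had one, a number too small to compare the sides. The windows had a median GC content of 56.7% in the 49 genes, 57.7% in the other primary-side genes and 56.3% in protein-coding genes, with 1.22, 1.29 and 1.22 windows per gene. The shares were not tested.

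**Figure D2:**
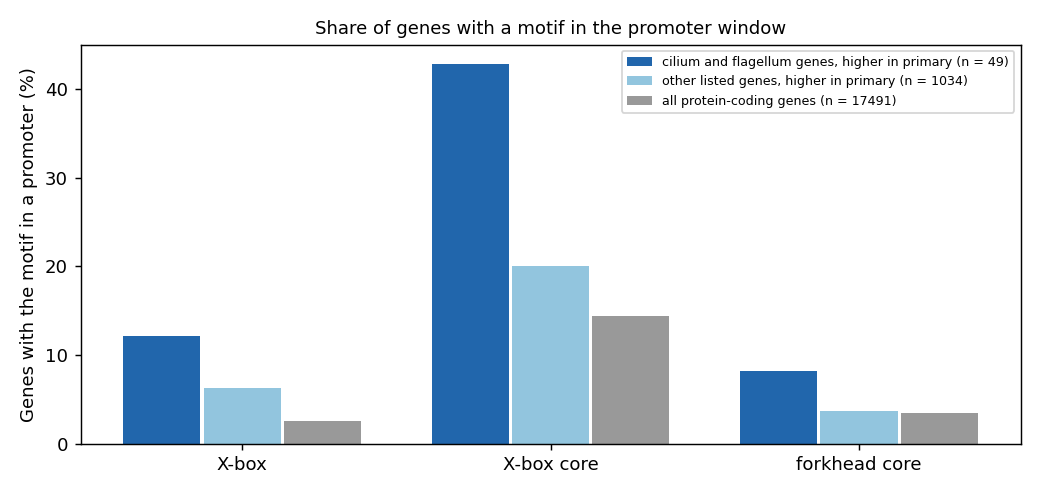
Bars give the percentage of genes whose promoter window holds the X-box, its core or the forkhead core, for the 49 cilium and flagellum genes higher in primary cells, 1034 other genes listed higher there and 17491 protein-coding genes. For each motif the first bar is the highest: 12.2, 42.9 and 8.16%.

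The 9 axonemal dynein genes were all higher in primary cells, with a median fold of 20.7 and a range of 4.55 to 60.9 in the authors' deposited table. Dnali1, a light intermediate chain of the inner arms, had signals of 722, 949 and 1040.4 on primary arrays 1, 2 and 3 and of 1.14, 16.3 and 0.713 on the MSC-1 arrays. The means were 904 ± 164 (SD, n = 3) and 6.05 ± 8.88 (SD, n = 3). Every primary array was thus far above every MSC-1 array, and the MSC-1 values were low but uneven, with array 2 the highest. The fold of Dnali1 in the authors' deposited table was 60.9, and a further probe set gave 30.1.

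Dnah7b, an inner arm heavy chain, had 567, 899 and 981 on the primary arrays and 11.4, 20.9 and 9.89 on the MSC-1 arrays, a fold of 52.1 in the authors' deposited table. Dnaic1, an intermediate chain of the outer arms also called Dnai1, had 204, 263 and 276 against 0.469, 0.742 and 0.308, with a fold of 25.5 in the authors' deposited table. Dnaic1 stayed below 1 unit on the MSC-1 arrays, far under the array medians, and the ratio of its means is larger than the authors' fold. The inner arm heavy chains Dnah1, Dnah2, Dnah6, Dnah7a and Dnah12 had folds of 24.2, 17.1, 9.19, 18.9 and 20.7 in the authors' deposited table, each with 3 low MSC-1 values. The Dnah12 probe set carries a pair of older symbols, Dnahc12 and Dnahc7l, which are now 1 gene. Dnaic2, the second outer arm intermediate chain, had the smallest fold of the group, 4.55 in the authors' deposited table. Its signals were 104, 121 and 171 in primary cells and 18.3, 36.8 and 21.8 in MSC-1 cells, where array 2 was above its median.

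The heavy chains are the motors proper. Of 10 inner arm heavy chains in the fixed list, 6 were in the table, all higher in primary cells, and of 5 outer arm heavy chains 0 were in it. A gene outside the table may have missed the 4-fold selection, may have been named otherwise or may have had no probe set, so its level is not known here.

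The 4 tektins were all higher in primary cells, and all their MSC-1 values were low. Tekt1 had 507, 734 and 878 on the primary arrays and 2.54, 10.3 and 6.71 on the MSC-1 arrays, means of 706 ± 187 (SD, n = 3) and 6.51 ± 3.87 (SD, n = 3), and a fold of 69.4 in the authors' deposited table. Tekt3 had 383, 455 and 584 against 1.58, 4.79 and 10.5, a fold of 26.03 in the authors' deposited table. In both genes every primary value was far above every MSC-1 value. Tekt2 had 262, 324 and 432 against 1.33, 9.54 and 6.59, and Tekt4, whose 2 X-box stretches are given above, had 262, 256 and 364 against 17.3, 2.51 and 13.96. Their folds in the authors' deposited table were 18.5 and 10.6.

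The 4 radial spoke genes were higher in primary cells by a median of 7.47 fold in the authors' deposited table, but only Rsph6a had 3 low MSC-1 values. Rsph6a, a spoke head protein of the sperm tail, had 293, 509.8 and 576 on the primary arrays and 0.723, 1.46 and 1.39 on the MSC-1 arrays, a fold of 29.3 in the authors' deposited table. Rsph9, another spoke head protein, had 368, 514 and 627 against 50.6, 34.8 and 38.2, a fold of 8.46 in the authors' deposited table. MSC-1 cells thus had an Rsph9 signal above the array medians on all 3 arrays. The probe set shared by Rsph3a and Rsph3b, near-identical genes that it cannot tell apart, had 3809, 5014 and 5799 against 822, 799 and 700.1. Its fold in the authors' deposited table was 6.47, and Rsph10b2 had one of 4.74.

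The 4 transport genes were all higher in primary cells, and all 12 of their MSC-1 values were above the array medians. Ift140, of the retrograde complex that carries cargo back to the cell body, had 1511, 1904 and 1831 on the primary arrays and 296, 216 and 214 on the MSC-1 arrays, means of 1749 ± 209 (SD, n = 3) and 242 ± 46.9 (SD, n = 3). Ift172, of the anterograde complex, had 552, 688 and 767 against 127, 92.2 and 127. Both lines of values show a clear MSC-1 signal and a higher primary one, with folds of 7.24 and 5.54 in the authors' deposited table. Ift122, of the same complex as Ift140, had 379, 541 and 628 against 91.8, 103 and 82.1, and Bbs7 had 336, 452 and 463 against 63.99, 69.1 and 55.7. Their folds of 5.14 and 4.39 in the authors' deposited table put Bbs7 among the members nearest to the 4-fold limit, together with Ccdc103 (4.3), Primpol (-4.02) and Ccdc126 (-4.505). Genes just outside that limit carry no names here. The largest authors' deposited fold among these 4 transport genes, 7.24, was below the median of the arms.

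No title named a dynein arm assembly factor, but Ccdc103, titled only by its coiled coil, is one: its loss removes dynein arms in humans and fish. It had 168, 186 and 173 on the primary arrays and 38.9, 28.3 and 36.5 on the MSC-1 arrays, means of 176 ± 9.14 (SD, n = 3) and 34.5 ± 5.59 (SD, n = 3). Its fold of 4.30 in the authors' deposited table was the smallest among the 57 primary-side genes described here. MSC-1 cells had a Ccdc103 signal a little above the array medians on every array.

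Of the cytoplasmic dynein genes, Dynlrb2, a roadblock light chain, had 599, 830.4 and 945 on the primary arrays and 7.39, 1.46 and 7.91 on the MSC-1 arrays. Dync1i1, an intermediate chain of the cytoplasmic motor, had 121, 146 and 169 against 8.95, 5.96 and 6.66. Both were low on every MSC-1 array, and their folds in the authors' deposited table were 81.4 and 5.02.

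**Figure D3:**
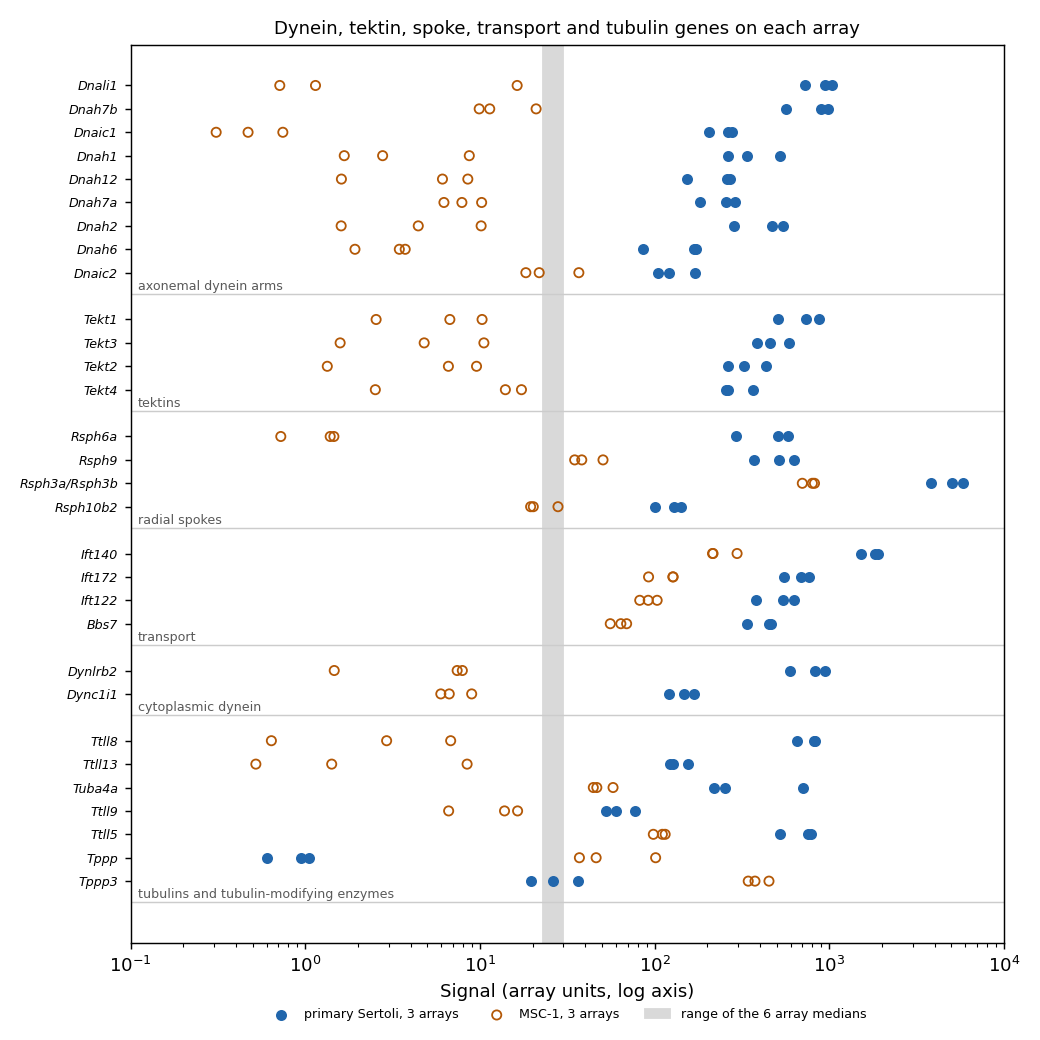
Each row is 1 gene with a title other than coiled-coil domain containing, and each point is 1 array, at its signal on a log axis: filled blue for the 3 primary arrays, open orange for the 3 MSC-1 arrays, with the grey band the range of the 6 array medians. The MSC-1 points of arms and tektins lie left of the band apart from Dnaic2, those of the transport genes lie right of it, and in Tppp and Tppp3 the order of the groups is turned.

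The tubulin titles went both ways, with 5 genes on the primary and 2 on the MSC-1 side. Ttll8, a tubulin glycine ligase, had 651, 812 and 832 on the primary arrays and 6.79, 0.638 and 2.92 on the MSC-1 arrays, a fold of 75.3 in the authors' deposited table. Ttll13, a glutamate ligase, had 122, 127 and 155 against 1.41, 0.520 and 8.43, a fold of 12.4 in the authors' deposited table. Both ligases were low in MSC-1 cells, and the primary arrays lay close together. Ttll5, also a glutamate ligase, had 523, 759 and 783 against 111, 98.2 and 115, and Ttll9 had 59.7, 52.5 and 77.6 against 6.61, 13.8 and 16.4. Their folds in the authors' deposited table were 4.74 and 4.85. Tuba4a, an alpha tubulin, was the one gene of the 57 with primary array 1 the highest: 707, 217 and 251.1, against 57.7, 44.5 and 46.6 in MSC-1 cells.

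Tppp and Tppp3, relatives that bind and bundle microtubules, were higher in MSC-1 cells. Tppp had 0.944, 0.606 and 1.05 on the primary arrays and 37.1, 101 and 46.2 on the MSC-1 arrays, with MSC-1 array 2 above the others. Tppp3 had 36.2, 19.5 and 26.3 against 375, 451 and 343. Tppp was near the bottom of the scale in primary cells while Tppp3 was close to the array medians there, and their folds in the authors' deposited table were -9.09 and -9.62.

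Of the 32 coiled-coil titles, 9 belong to fixed cilium lists and all 9 were higher in primary cells, with a median fold of 9.74 in the authors' deposited table. Ccdc39 and Ccdc40 together form the ruler that sets the spacing of inner arms and regulatory complexes along the doublet. Ccdc39 had 732, 981 and 1052 on the primary arrays and 24.3, 18.4 and 31.4 on the MSC-1 arrays, a fold of 26.3 in the authors' deposited table. Ccdc40 had 327, 535 and 608 against 1.70, 0.848 and 1.37, a fold of 29.5 in the authors' deposited table. A second Ccdc39 probe set had 89.8, 100.2 and 126 against 5.59, 1.10 and 7.70, and a fold of 11.7 in the authors' deposited table. For Ccdc39 an MSC-1 signal near the array medians was thus seen on the first probe set and not on the second. Ccdc65, a subunit of the regulatory complex, had 369.9, 465 and 471 against 3.93, 5.73 and 0.701, and Cfap45 had 314, 456 and 490.4 against 9.65, 4.43 and 7.84. Ccdc151, of the outer arm docking complex, had 113, 188 and 205 against 3.24, 3.18 and 6.77. Their folds in the authors' deposited table were 21.6, 36.7 and 9.74.

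Deup1 had 136, 136 and 160.2 on the primary arrays and 1.60, 1.05 and 7.51 on the MSC-1 arrays. Cep89, of the distal appendages that anchor the basal body, had 143, 209.7 and 224 against 20.4, 18.5 and 18.98, and Cfap53, another protein inside the doublet, had 128, 241 and 237 against 11.8, 1.89 and 2.35. All 3 were low on each MSC-1 array, and their folds in the authors' deposited table were 7.11, 6.91 and 8.78.

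The other 23 coiled-coil titles, in none of the lists, split into 20 on the primary and 3 on the MSC-1 side, and the 20 had a median fold of 20.3 in the authors' deposited table. Ccdc30 had 684, 1005 and 998 on the primary arrays and 14.3, 12.4 and 0.220 on the MSC-1 arrays, with a fold of 94.95 in the authors' deposited table that fell to 12.25 in the lowest of its 4 probe sets. Ccdc38 had 846, 1211 and 1393 against 3.24, 9.84 and 6.23, with folds of 88.9 and 54.55 from 2 probe sets in the authors' deposited table. These were the largest folds of the 62 genes, and for Ccdc30 the size depended strongly on the probe set. In the ciliate Tetrahymena, Ccdc113 and Ccdc96 form a complex beside the regulatory complex. Ccdc113 had 339, 526 and 554 against 5.97, 1.51 and 5.81, and Ccdc96 had 827, 1274 and 1265 against 17.9, 16.5 and 12.9. Their folds in the authors' deposited table were 60.1 and 50.2, and both genes were low on all MSC-1 arrays.

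Among the rest, Cfap65, needed for the sperm tail in mice, had 307, 360.0 and 410.3 on the primary arrays and 0.891, 9.17 and 3.37 on the MSC-1 arrays. Terb1, which belongs to meiotic chromosomes and not to the axoneme, had 234, 372 and 261 against 0.649, 0.181 and 0.746. The word rule therefore took in a meiotic gene with the same side and a like pattern of low MSC-1 values. The folds of Cfap65 and Terb1 in the authors' deposited table were 19.6 and 30.9, and a second Terb1 probe set had 17.1 there. Ccdc89, Ccdc62, Ccdc83, Ccdc158 and Ccdc110 had folds from 20.98 to 42.4 in the authors' deposited table, where a second Ccdc89 probe set had 9.165. Ccdc92, Lrrcc1 and Ccdc136, a group that kept MSC-1 values above the array medians, had folds of 14.1, 13.9 and 7.98 in the authors' deposited table. Ccdc7a, Ccdc24, Ccdc105, Ccdc87, Ccdc146 and Ccdc88c made up the 20, with folds of 4.90 to 12.4 in the authors' deposited table.

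The coiled-coil titles on the MSC-1 side were Gcc2, Ccdc126 and Primpol, none of them in a cilium list. Gcc2 had 17.01, 15.96 and 22.3 on the primary arrays and 67.9, 73.1 and 79.2 on the MSC-1 arrays. Ccdc126 had 30.3, 51.1 and 27.9 against 151, 146 and 133, and Primpol had 26.3, 19.7 and 25.9 against 72.7, 75.8 and 99.95. The groups did not overlap in any of them, and the primary signals were near or below the array medians apart from Ccdc126 on array 2. With Tppp and Tppp3 they make up the 5 genes higher in MSC-1 cells. None of the 5 is in a fixed list, but the lists were chosen with earlier results of these data known. Nothing is therefore read from their absence.

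**Figure D4:**
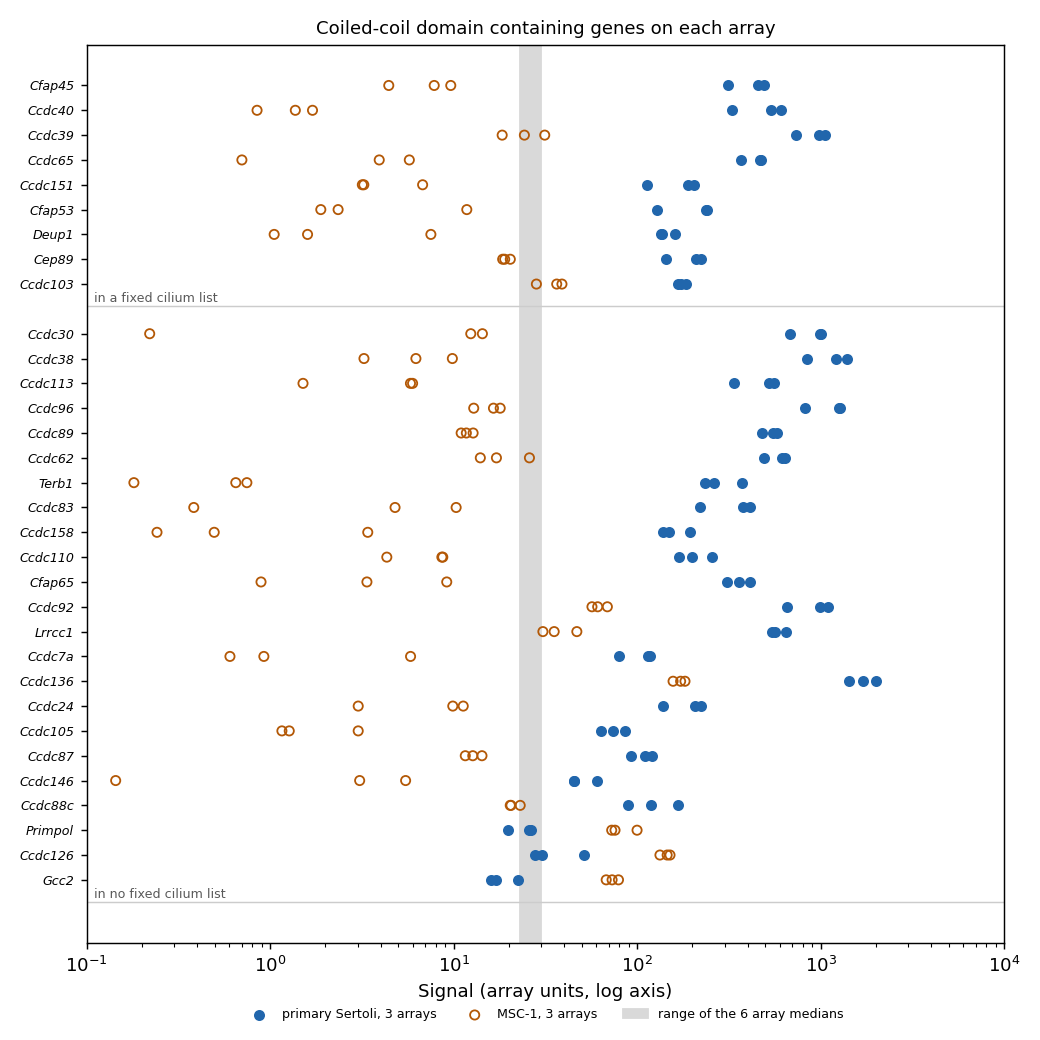
Each row is 1 gene titled by its coiled-coil domain and each point is 1 array at its signal on a log axis, filled blue for the 3 primary and open orange for the 3 MSC-1 arrays, with the grey band the range of the 6 array medians. The upper block holds the 9 genes of fixed cilium lists and the lower block the other 23, where Primpol, Ccdc126 and Gcc2 have the groups in the opposite order.

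The lists of cilium genes, counted by symbol and not by title, show how the genes above sit in each structure. As only probe sets of the deposited table carry names here, a list is counted among genes of that table, and all counts below are of a table in which 62.5% of genes were higher in primary cells. Of 24 genes of the inner arms and regulatory complex, 17 were listed, 17 of them higher in primary cells, 10 described above and 7 others. The others included Wdr63, an intermediate chain of an inner arm (52.2 fold in the authors' deposited table). The regulatory complex genes Drc1 and Iqcg had 21.2 and 25.8 in the authors' deposited table. Folds were smaller there for Drc3, Tcte1, Wdr78 and Iqcd, at 10.7, 11.9, 10.2 and 6.25. Of 16 outer arm and docking genes, 7 were listed, 6 higher in primary cells, and Efcab1, a calcium-binding docking protein, was the 1 higher in MSC-1 cells, at a fold of -5.78 in the authors' deposited table. Efcab1 had 11.9, 2.39 and 9.32 on the primary arrays and 44.1, 76.9 and 50.9 on the MSC-1 arrays, and of the arm, spoke and doublet genes in the lists it was the 1 on that side.

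Assembly of the arms was represented by 9 of 21 list genes, 9 of them higher in primary cells. Zmynd10, a chaperone partner of dynein heavy chains, had 1150.3, 1501 and 1499 on the primary arrays and 2.07, 0.878 and 0.948 on the MSC-1 arrays, a fold of 89.1 in the authors' deposited table. Lrrc6, Dnaaf6 and Dnaaf4, further assembly factors, had folds of 23.2, 21.4 and 18.8 in the authors' deposited table, and Cfap298 had 4.15. The assembly genes thus ran from folds close to the limit of the authors' deposited table, in Cfap298 and Ccdc103, to the high one of Zmynd10. Of 24 spoke and central pair genes, 14 were listed, 14 of them on the primary side. Spag6, a central pair protein, had 1167, 1469 and 1551 against 1.80, 1.33 and 1.16, a fold of 72.01 in the authors' deposited table. Ropn1 and Cfap221, of the same list, had folds of only 4.05 and 4.54 in the authors' deposited table.

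Of 25 tektins and other doublet proteins, 14 were listed, 14 of them on the primary side. Cfap206 and Cfap52 had folds of 72.7 and 66.5 in the authors' deposited table, while Spag8 and Mns1 had 7.60 and 8.18. Of 34 intraflagellar transport genes, 6 were listed, 5 higher in primary cells and 1, Tulp3, which links membrane cargo to the retrograde complex, higher in MSC-1 cells. Of 13 BBSome genes, 2 were listed, Bbs7 and Lztfl1, both higher in primary cells. Of 50 genes of tubulins and their modifying enzymes, 11 were listed, 10 on the primary side and 1, the tubulin carboxypeptidase Vash1, on the MSC-1 side. Of 25 cytoplasmic dynein and dynactin genes, 4 were listed, 3 higher in primary cells, and Nde1 higher in MSC-1 cells.

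Of 25 genes in a list of ciliogenesis transcription factors and centriole genes, 6 were in the table, 6 of them higher in primary cells. The 6 include Crem and Taf7l, which are germ cell factors, so the count is not of ciliogenesis genes alone. Rfx2, the RFX factor needed for the sperm tail in mice, had 384, 436 and 565 on the primary arrays and 47.9, 39.9 and 37.95 on the MSC-1 arrays, a fold of 10.1 in the authors' deposited table. Rfx4 had 241, 321 and 237 against 1.47, 0.275 and 0.449, a fold of 27.3 in the authors' deposited table. Crem, an activator of spermatid genes, had 615, 753 and 729 against 14.1, 9.98 and 10.1, and Taf7l, a germ cell subunit of the general transcription machinery, had 392, 694 and 465 against 8.31, 0.665 and 2.33. Folds of Crem, Taf7l and Cep63, a centriole protein, were 50.4, 34.5 and 7.83 in the authors' deposited table, and Deup1 is given above. Foxj1, Mcidas, Gmnc and Ccno, regulators of multiciliated cells, were not in the table under their own symbols, so their levels are not known here.

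The contrast did not use differences among the primary arrays, and there the genes moved together. Primary array 1 was the lowest of the 3 in 52 of the 57 primary-side genes (91.2%), where it was lowest in 68% of 1420 other primary-side genes of the table and in 38% of all probe sets. On the log2 scale array 1 was below the mean of arrays 2 and 3 by a median difference of -0.47 in the 57 genes, of -0.33 in the other primary-side genes and of 0.01 over all probe sets. Array 3 was the highest in 45 of the 57 (78.9%), in 46.3% of the other primary-side genes and in 33.7% of all probe sets. The median ratio to array 1 was 1.35 for array 2 and 1.498 for array 3. Without the coiled-coil titles array 1 was lowest in 25 of 28 genes, with a median difference of -0.48.

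Array 1 was the lowest in 9 of 9 arm genes, with a median log2 difference of -0.66, in 4 of 4 spoke genes (-0.56), in 4 of 4 transport genes (-0.42) and in 3 of 4 tektins (-0.47). Array 1 was also the lowest in 27 of 29 coiled-coil titles (-0.47) and 2 of 2 cytoplasmic dynein genes (-0.47). The tubulin titles followed least, with array 1 the lowest in 3 of 5 (-0.20). Over the 57 genes the difference ran from -0.98, in Dnah6 on arrays at 86.1, 168 and 172, to 1.60 in Tuba4a. In the lists counted by symbol it was -0.66 for 17 inner arm and regulatory complex genes and -0.67 for 9 assembly genes, with array 1 the lowest in each of them. It was -0.53 for 14 genes of the doublet microtubule, with array 1 lowest in 13, and -0.40 for 14 spoke and central pair genes, with array 1 lowest in 12 and highest in 2. It was -0.37 for 6 outer arm and docking genes (lowest in 5), -0.32 for 5 intraflagellar transport genes (lowest in 4) and -0.22 for 13 genes of sperm tail accessory structures (lowest in 8). For 10 genes of the tubulin list it was -0.41 (lowest in 7), and for 7 basal body and transition zone genes -0.38 (lowest in 5). With 3 arrays this is a description, and nothing in the labels says how array 1 differed.

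**Figure D5:**
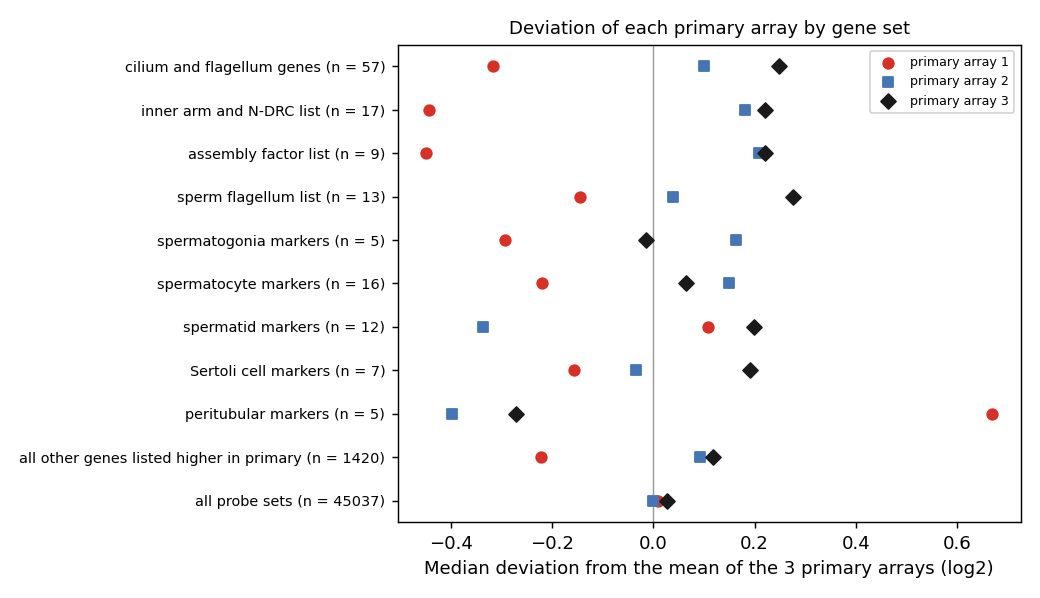
For each gene set on the vertical axis, the 3 symbols give the median deviation of primary arrays 1, 2 and 3 from the gene's mean over these arrays, on the log2 scale of the horizontal axis. For the 57 cilium and flagellum genes array 1 lies at -0.32 and arrays 2 and 3 at 0.10 and 0.25, while for peritubular markers array 1 is the highest and for spermatid markers array 2 is the lowest.

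Markers of other testis cells moved with these genes between the groups. All 16 listed of 34 spermatocyte markers, 12 listed of 33 spermatid markers and 5 listed of 17 spermatogonium markers were higher in primary cells. Summed over the listed genes, spermatocyte markers lay between 7103 and 9235.5 units on the primary arrays and between 214 and 286 on the MSC-1 arrays. Spermatid markers lay between 4562 and 5750 against 109 to 112, and spermatogonium markers between 3779 and 5387 against 89.3 to 102. Zpbp2 and Tcp11 made up much of the spermatid sum, with 1009 and 1571 units on primary array 1. That sum was lowest on primary array 1, although array 1 was the lowest in only 4 of the 12 spermatid markers. The protamines Prm1 and Prm2 and the transition proteins Tnp1 and Tnp2 of late spermatids were not in the table under their own symbols, so their levels are not known here. The 57 genes themselves summed to 24435, 32379 and 35454 units on primary arrays 1, 2 and 3 and to between 2046 and 2284 on the MSC-1 arrays. A large part of the MSC-1 sum came from the probe set shared by Rsph3a and Rsph3b. That probe set had 822, 799 and 700.1 units on MSC-1 arrays 1, 2 and 3, and 3809, 5014 and 5799 on the primary arrays. The part of germ cells in the differences of the cilium genes was not tested.

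Sycp1, of the synaptonemal complex that joins chromosomes in meiosis, had 752, 858 and 826 on the primary arrays and 0.526, 3.88 and 6.15 on the MSC-1 arrays. Acr, the protease of the acrosome, had 488, 643 and 619.9 against 13.8, 7.43 and 8.07. Other germ cell markers kept MSC-1 values above the array medians, such as Hspa2, a heat shock protein of spermatocytes, with 1869, 2529.7 and 2659 against 143, 213 and 156, and Id4, of spermatogonia, with 786, 933 and 818 against 42.7, 37.6 and 38.8. Within the primary group array 1 was the lowest in 13 of 16 spermatocyte markers (median log2 difference -0.33) and 5 of 5 spermatogonium markers (-0.44), but in 4 of 12 spermatid markers (0.16). Of 27 Sertoli cell markers, 9 were listed, 7 on the primary side and Trf and Vim on the other, and the 7 summed to 7749.9 to 8356 on the primary and 475 to 665 on the MSC-1 arrays. With Trf and Vim the sums were 9428 to 10004 against 10474 to 10785.5. Single strong probe sets carried these sums: Clu had 5623 units on primary array 1, and Trf and Vim had 4508 and 5764 on MSC-1 array 1. The near-equal totals are therefore not a like Sertoli marker level in both groups. Sox9, the Sertoli cell transcription factor, had 131, 204 and 244 against 36.4, 39.7 and 28.1, so both groups had a signal above the array medians.

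Of 12 peritubular and smooth muscle markers, 6 were listed, 5 higher in primary cells, and primary array 1 was the highest in 5 of those 5 (median log2 difference 1.003). The 5 listed peritubular markers on the primary side summed to 3379, 1752 and 1799.6 on primary arrays 1, 2 and 3 and to between 116 and 148 on the MSC-1 arrays. With Mylk, which had more signal in MSC-1 cells, the sums were 3919, 2095 and 2086 against 2089.9 to 2702. The array with the lowest cilium gene signals was therefore also the one with the highest peritubular signals, and their part in the result was not tested. Of 14 macrophage markers, 3 were listed, 3 of them with more signal in primary cells, at 578 to 997 against 35.0 to 74.3. Of 9 Leydig cell markers, 2 were listed, Star higher in primary cells and Akr1cl in MSC-1 cells. Of 17 proliferation genes, 12 were listed, 12 of them on the MSC-1 side, at 1805 to 2315 against 13913 to 15159.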

How the data were processed

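RNA of 3 samples of aggregated primary Sertoli cells and 3 of aggregated MSC-1 cells was read on Affymetrix arrays with 10 ug of total RNA each, per the labels' protocols. The submitters' processing notes name GCOS, with no version. The deposited values per array are intensities on a linear scale, whose mean after trimming 2% at each end was equal on the 6 arrays (125.0 units). The authors deposited a further table of signed folds, chosen at 4-fold. Its averaging and other criteria are not stated. The ratio of array means reached 4-fold in 2964 of its 3198 probe sets and in 7112 of all. On the log2 scale the array differences were larger than the authors' by a median of 0.32.

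Values were put on the log2 scale and fitted with limma 3.58.1 (trend, eBayes, two-sided, Benjamini-Hochberg over 45037 probe sets other than controls, threshold 0.05) in R 4.3.3. The fit was tested on simulated data. A gene takes the probe set with its largest fold, and in the lists the one with the highest mean. Symbols come from the deposited table, 16 of those of the 62 genes updated through RefSeq (GRCm38.p6). Of 492 list symbols 6 were unmatched. Genes named with values per array were the 3 largest folds of each role and side, others being added after their values were seen. Members and lists were chosen with earlier results of these data known. The number of arrays limits the precision. Between arrays, Pearson correlations of log2(value + 16) were 0.96 to 0.97 for primary array 1 with arrays 2 and 3, 0.99 for arrays 2 and 3, and 0.98 to 0.99 among MSC-1 arrays. Python 3.11.15, pandas 2.3.3, numpy 2.4.6 and matplotlib 3.10.9 were used. A few genes of the lists are left out of the text. The closing section gives the alternatives run.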

Additional observations from a re-analysis of the deposited data

How the results depend on the processing

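The counts of 57 genes on the primary and 5 on the MSC-1 side became 37 and 2 at 8-fold and 28 and 0 at 16-fold in the authors' deposited table. They were 28 and 2 without the titles taken only for a coiled coil, and without tubulin titles 3 genes were higher in MSC-1 cells. The median log2 difference between the groups over the 62 genes was 5.27, and 3.85 with values below the 40th percentile of each array set to it, and 3.30 as log2(value + 16), since both raise low values. It ran from 5.14 to 5.49 with each array left out in turn, and the number of genes called by limma was 62 in each such fit. With the dimmest probe sets left out (1 in 3 by mean signal), 60 of the 62 genes remained to be tested, and the rete testis and efferent duct list kept 1 of its 2 genes. Calls higher in primary cells over all probe sets went from 8495 to 23113 under the floor, by construction, as the floor was higher on primary arrays: all 11359 probe sets at the floor on every array were called. With single arrays left out these calls ran from 7214 to 8379, and those higher in MSC-1 cells from 7375 to 10235. The labels do not say that array numbers pair the samples. Deviations of same-numbered arrays from their group means correlated at -0.02, -0.03 and -0.0009, which with 3 arrays per group does not settle it. With the replicate block limma called 62 of 62 genes, and 7942 probe sets higher in primary and 8749 in MSC-1 cells. Array 1 was the lowest primary array in 52 or 53 of 57 genes under quantile normalization, the floor or log2(value + 16), alternatives added after the data were seen, with median differences of -0.52 to -0.46. The other 480 values computed under an alternative stayed within the limits set for them, and 0 reversed. Probe sets near the bottom of the scale in MSC-1 cells have folds whose size the array background limits.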

Other observations

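Most listed genes of a fixed list for accessory structures of the sperm tail were also higher in primary cells. Of its 30 genes, 14 were listed in the authors' deposited table, 13 of them higher in primary cells. The annulus gene Septin4 was the 1 higher in MSC-1 cells, at a fold of -4.02 in the authors' deposited table. The list also held Cfap43 and Dnajc27, with folds of 27.99 and 4.66 there, and their place outside the axoneme was not checked. The counts are therefore of the list, and not of tail parts outside the axoneme alone. Odf2, a protein of the outer dense fibers and of centrioles, had 969, 1273 and 1544 on primary arrays 1, 2 and 3 and 67.3, 63.6 and 62.5 on the MSC-1 arrays. Septin12, of the annulus between parts of the tail, had 908, 945 and 1079 against 4.73, 8.09 and 11.7. In both genes primary array 1 was the lowest. Akap3, of the fibrous sheath, had 329, 178 and 325 on the primary arrays, with array 2 the lowest. Odf1, a fiber protein that also marks spermatids, had 124, 53.97 and 113 on the primary arrays and 1.34, 0.891 and 6.02 on the MSC-1 arrays.

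Genes of the basal body, the transition zone and the primary cilium, which do not depend on motility, went both ways. Of 36 such genes, 9 were listed, 7 higher in primary cells and Tulp3 and Cc2d2a in MSC-1 cells. Rpgrip1, which anchors a regulator in photoreceptor cilia, had 498, 728 and 666 against 9.54, 2.45 and 7.12. Cc2d2a, of the transition zone, had 26.7, 29.2 and 25.6 against 106, 134 and 109, so MSC-1 cells were the higher group. Tuba3a, the testis alpha tubulin that the title rule left out, had 3446, 4712 and 4899.9 on the primary arrays and 36.5, 67.3 and 60.7 on the MSC-1 arrays, a fold of 62.3 in the authors' deposited table.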
